A study of Mus musculus with 8 samples.

Results

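The interferon-stimulated genes Ifit1, Ifit2, Ifit3, Isg15, Oas1a, Irf7, Irf9, Bst2 and Rsad2 were followed in the retina of aged mice, as 9 of the 16093 named genes that were measurable there. They were found by the accession that each array probe carries, which gave 12 of the 56605 probes on the array, with 2 probes each for Irf7, Irf9 and Rsad2 and 1 for each of the others. The study compared 4 samples of retina from homozygous Mrp4 knockout mice, here called Mrp4-null, with 4 samples from wild-type (WT) mice, all labelled as 46 to 55 weeks old, and asked how the loss of the efflux transporter MRP4 and ageing together alter the retina. Each sample was hybridized to its own one-color Agilent array. The knockout is homozygous on a C57BL/6J background, with no restriction to a cell type and no treatment or infection named, and neither the labels nor the methods give the sex of the mice or the origin of the wild-type mice. Retinas of 3 mice are mentioned in the methods without saying how they relate to the 4 samples of a genotype, so the p-values measure the spread between these samples.

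Type I and type III interferons are secreted when sensors in a cell detect foreign or misplaced nucleic acid. They bind receptors whose Janus kinases phosphorylate STAT proteins, and these join IRF9 in a complex that binds the interferon-stimulated response element (ISRE) of target promoters. The targets include antiviral effectors and also regulators such as IRF7, which drives further interferon production. In the retina, microglia, Muller glia and vascular cells are known to respond to interferons.

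The core of the ISRE links the members to this pathway, so the promoters of the 9 genes in RefSeq (GRCm38.p6, 250 bases before to 50 after the start of transcription) were searched on both strands for 2 copies of GAAA separated by 2 bases of any kind, or the reverse complement of that pattern, with overlapping matches all counted. The motif was present in 6 of the 9 members, against 3.99% of the 27025 genes in the promoter table. These 6 stretches are shown because they hold each match, in capitals where matches may run together, and are written 5′ to 3′ on the strand of the gene.
Isg15, chr4:156200850-156200921, minus strand: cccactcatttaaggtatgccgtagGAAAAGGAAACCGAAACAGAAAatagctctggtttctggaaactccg
Oas1a, chr5:120907526-120907570, minus strand: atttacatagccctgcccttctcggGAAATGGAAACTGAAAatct
Bst2, chr8:71537562-71537627, minus strand: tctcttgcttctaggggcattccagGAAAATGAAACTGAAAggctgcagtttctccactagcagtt
Rsad2, chr12:26456538-26456597, minus strand: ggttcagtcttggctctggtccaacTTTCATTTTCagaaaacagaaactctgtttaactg
Ifit3, chr19:34583348-34583441, plus strand: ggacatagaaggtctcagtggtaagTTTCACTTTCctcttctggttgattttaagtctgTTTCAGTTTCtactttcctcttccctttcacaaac
Ifit1, chr19:34640760-34640838, plus strand: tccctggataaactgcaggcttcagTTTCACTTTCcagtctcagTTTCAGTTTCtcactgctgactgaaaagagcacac

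Isg15 held 3 overlapping matches, Oas1a and Bst2 held 2 overlapping matches each, Ifit1 and Ifit3 held 2 separate matches each, and Rsad2 held 1. The first matched base lay between 156 bases (Ifit3) and 20 bases (Oas1a) before the start of transcription. No match was found in the windows of Ifit2 (chr19:34550444-34550743 and chr19:34550838-34551137), Irf7 (chr7:141266375-141266674) or Irf9 (chr14:55603735-55604034 and chr14:55604329-55604628). That says only that these letters are not in these windows. Ifit1, Ifit2 and Ifit3 are neighbours in a gene cluster, while the other members lie on 6 other chromosomes.

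The arrays were of similar quality, with between 66.0% and 69.9% of probes well above background and no saturated spot, and all 8 lay on 1 slide. Abcc4, the gene that encodes MRP4, goes against the labels. Its log2 signal was 10.75 ± 0.09 (SD, n = 4) under the null label and 6.83 ± 0.29 (SD, n = 4) under the WT label (limma adjusted p = 1.36e-05). Where its probe lies relative to the deleted sequence is not given in the sources used here. Directions below therefore follow the deposited labels, and the samples are called arrays labelled Mrp4-null. Transcripts of Y-linked genes were well above background on 0 arrays labelled Mrp4-null and 3 WT arrays, so genotype and sex cannot be told apart in full. Xist, the transcript of the inactive X chromosome, was well above background on 4 arrays labelled Mrp4-null and 2 WT arrays. WT replicate 2 carried both Xist and Y-linked transcripts, as a pool of female and male mice would. Whether the samples are pools is not stated. All 12 listed rod and cone genes were measurable, but so were all 8 listed lens genes, so passing the filter does not identify the tissue. By level, the summed signal of the rod and cone genes ran from 718565 to 784898 over the arrays. That of the lens genes ran from 2936 to 50105. One array, Mrp4-null replicate 3, stood apart from the other 7 in the members, and the genotype results of the members are given with and without it.

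No member passed the test for a difference between the genotypes. Of the 9 members, 0 were called changed, where a call required a fold change of at least 1.5 and a Benjamini-Hochberg adjusted p under 0.05 in limma, and 0.652% of all measurable genes were called. The 9 genes were all higher by sign under the null label, as were 46.3% of all genes, with a median log2 fold change of 0.49. The ranges of the genotypes overlapped in each member, whereas 4.79% of all probes had ranges apart. Without Mrp4-null replicate 3 the median was -9.4e-04, and 0 members were called in a fit that called 0.534% of all genes. Over all 16093 genes the medians were -0.0099 and -0.0071.

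The adjusted p of the members ran from 0.878 to 1.00 in limma. The number with an unadjusted p under 0.05 was 0 of 9, against 6.6% of all genes, and the local pooled error (LPE) test named in the study's methods also called 0 members and 0.758% of all genes. The intervals of the differences were wide with all arrays, from -0.92 to 2.15 for Oas1a and from -0.07 to 0.92 for Irf9 by its brighter probe (95% confidence intervals of the log2 fold change). Without Mrp4-null replicate 3 they were narrower, as for Isg15 at -0.23 to 0.22 and Bst2 at -0.21 to 0.24. Retina holds many cell types, so fewer cells of a type and less RNA per cell cannot be told apart in any of these values.

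**Figure D1:**
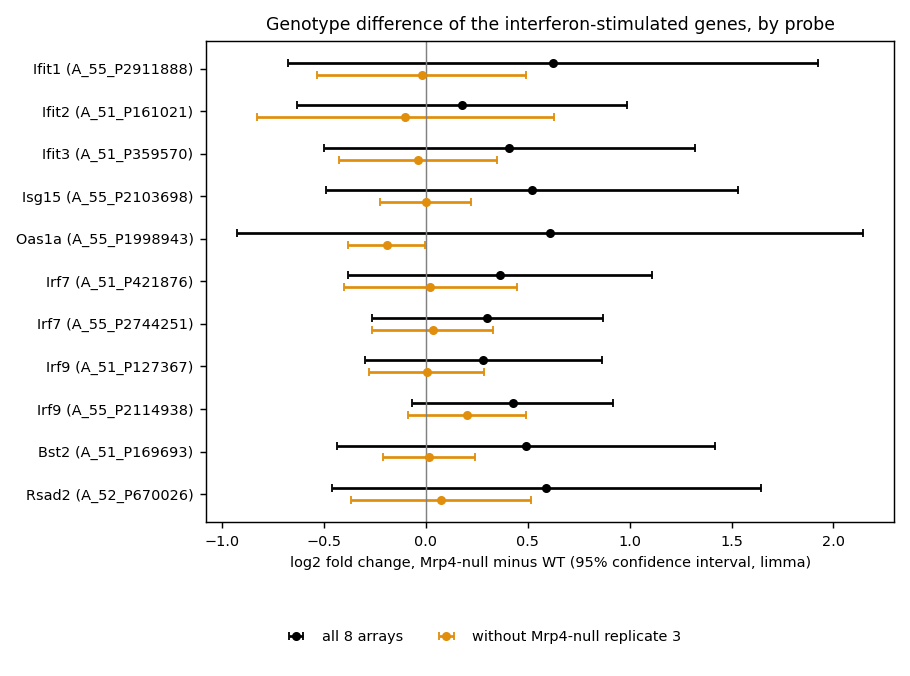
Log2 fold change between arrays labelled Mrp4-null and WT arrays for the 11 measurable probes of the members, with 95% confidence intervals from limma, for all 8 arrays (black) and without Mrp4-null replicate 3 (orange). With all arrays every interval spans 0, and without that array the points lie between -0.19 (Oas1a) and 0.20 (Irf9).

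IFIT1 binds viral RNA that lacks the cap methylation of the host. Ifit1 had log2 signals of 6.88, 6.53, 9.36 and 6.95 on Mrp4-null replicates 1 to 4 and of 6.78, 7.01, 6.27 and 7.17 on the WT arrays. Replicate 3 lay above all other arrays, and the remaining 3 arrays of its group lay inside the WT range. The log2 fold change was 0.62 (SE 0.57, limma adjusted p = 1.00) with it and -0.02 (SE 0.22) without it.

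Ifit3 had log2 signals of 9.87, 9.77, 11.71 and 10.12 under the null label and of 9.69, 10.15, 9.76 and 10.22 in WT. The same replicate was again alone at the top, by 2.80-fold over the next array. Ifit2 had values of 6.93, 5.83, 7.75 and 7.18 against 6.71, 6.95, 6.44 and 6.87. In Ifit2 the array labelled Mrp4-null replicate 2 was the lowest of all 8, and replicate 3 exceeded the next array, Mrp4-null replicate 4, by 1.49-fold. The log2 fold changes of Ifit3 and Ifit2 were 0.41 (SE 0.40) and 0.18 (SE 0.36), and without replicate 3 they were -0.04 and -0.10.

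Isg15 encodes a ubiquitin-like protein that is attached to other proteins during an interferon response. Its log2 signals were 9.57, 9.64, 11.64 and 9.43 under the null label against 9.58, 9.66, 9.45 and 9.49 in WT. The 7 arrays other than Mrp4-null replicate 3 spanned from 9.43 to 9.66, the narrowest span among the IFIT genes and Isg15, and that array was 3.92-fold above the next. The log2 fold change was 0.52 (SE 0.44) with all arrays and -9.4e-04 (SE 0.10) without it. Before normalization the processed signal was 3410 there and between 552 and 980 on the others.

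Oas1a encodes an oligoadenylate synthetase, which makes a nucleotide messenger in response to double-stranded RNA. Under the null label it was at 6.54, 6.53, 9.77 and 6.62 (log2 signal), and in WT at 6.83, 6.70, 6.74 and 6.74. Of the members it had the largest excess on Mrp4-null replicate 3, at 7.67-fold over the next array. The other 3 arrays labelled Mrp4-null lay below all 4 WT arrays. Without replicate 3 the log2 fold change of Oas1a was -0.19 (SE 0.08), with an unadjusted p of 0.0465 and an adjusted p of 0.955 in limma. It was the 1 member of 9 with an unadjusted p under 0.05 in that fit, in which 5.1% of all genes were.

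Rsad2 encodes viperin, a radical enzyme that makes a chain-terminating nucleotide. Its measurable probe gave log2 signals of 6.06, 5.96, 8.10 and 6.08 for the null label, compared with 5.56, 6.10, 5.79 and 6.38 for WT. The second probe of Rsad2 did not pass the filter, since it was well above background on 1 array, Mrp4-null replicate 3. There its processed signal was 53.4, and on the other arrays it was at most 11.7. Both probes were thus highest on the same array. The log2 fold change of the measurable probe was 0.59 (SE 0.46), and 0.08 (SE 0.19) without that array.

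Bst2 encodes tetherin, which holds budding virus particles at the cell surface. Its log2 signals under the null label were 8.61, 8.60, 10.52 and 8.64, and those in WT were 8.54, 8.77, 8.62 and 8.47. As with Isg15, the values of 7 arrays lay close together and Mrp4-null replicate 3 exceeded the next by 3.36-fold. The log2 fold change was 0.49 (SE 0.41), and without that array it was 0.02 (SE 0.10).

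The transcription factors among the members had smaller excesses than Oas1a or Isg15. Irf7, by its probe of higher signal, was at 11.72, 12.01, 12.86 and 11.66 (log2 signal) under the null label and at 11.96, 11.75, 11.75 and 11.59 in WT. Irf9, by its probe of higher signal, was at 10.72, 11.02, 11.71 and 10.72 against 10.84, 10.54, 10.52 and 10.56. On Mrp4-null replicate 3 they exceeded the next array by 1.81-fold and 1.61-fold, respectively, and the second probe of each gene gave 2.00-fold and 1.95-fold. The log2 fold change of Irf7 was 0.30 (SE 0.25) by the probe of higher signal, and 0.03 (SE 0.13) without that array. For Irf9, the DNA-binding partner of STAT proteins, it went from 0.43 (SE 0.22) to 0.20 (SE 0.12) by the probe of higher signal and from 0.28 (SE 0.25) to 0.0042 (SE 0.12) by the other.

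**Figure D2:**
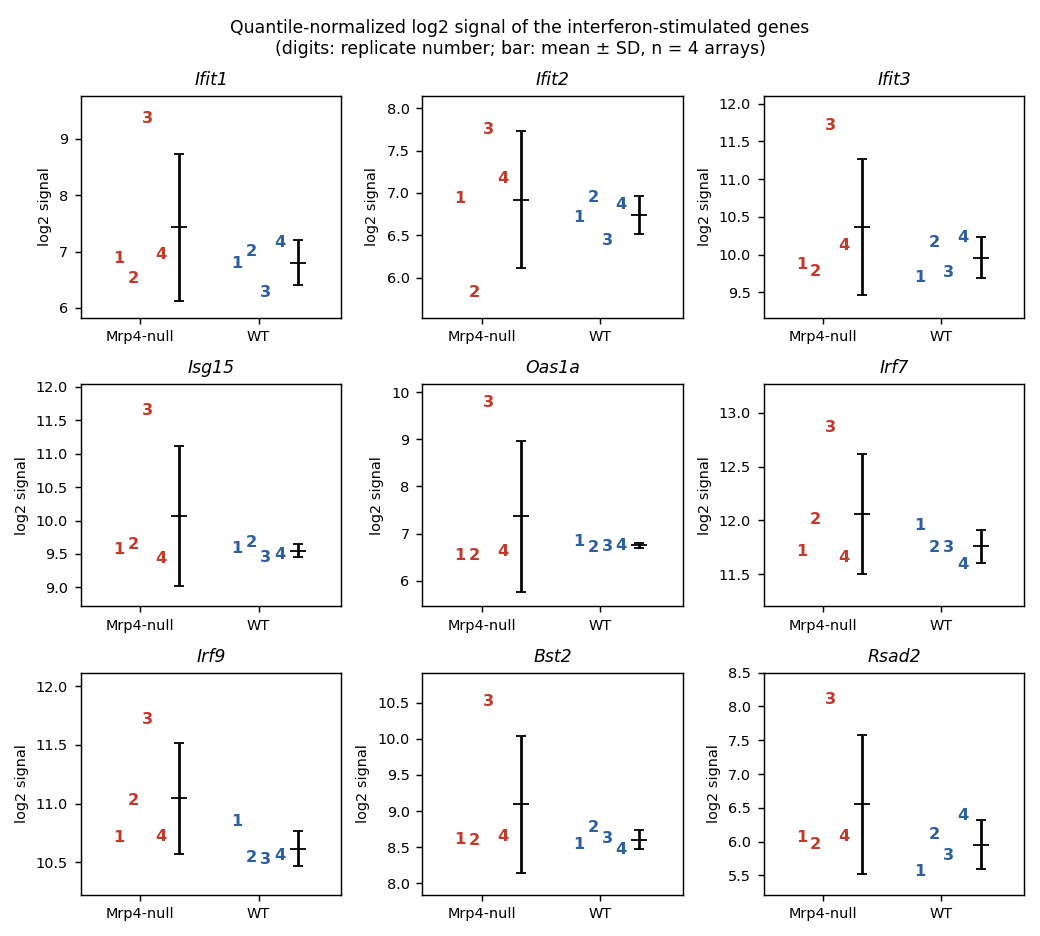
Quantile-normalized log2 signal of the 9 members by genotype label, each by its probe of higher mean signal. Digits mark the replicate number and the bar beside them is the mean ± SD (n = 4 arrays). Mrp4-null replicate 3 is the highest of 8 arrays in every panel, from 1.49-fold (Ifit2) to 7.67-fold (Oas1a) above the next.

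On Mrp4-null replicate 3 all 9 members had their highest value of the 8 arrays, and 12.8% of all genes did. An excess of at least 2-fold over the next array was present in 6 of the 9 members and in 133 (0.826%) of all genes. On each of the other 7 arrays between 0 and 8 genes had such an excess, none of them a member. Relative to the mean of the other arrays, the members were higher there by 1.01 (Irf9) to 3.10 (Oas1a) on the log2 scale, with a median of 1.91 against -0.0075 over all genes. A single array has no replicate, so this excess is a description.

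Across the arrays the members moved together through that array. Over all 8 arrays the median Pearson correlation between members was 0.93 (36 pairs, range 0.42 to 0.99). Over the other 7 arrays the median was -0.05, with a range from -0.77 to 0.86. These values are descriptive, since the pairs share arrays and normalization. On the 7 arrays the mean deviation of the members ran from -0.15 (WT replicate 3) to 0.10 (WT replicate 2), so the WT arrays spanned both the lowest and the highest of them.

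On Mrp4-null replicate 3 the share of probes well above background, 69.9%, was the highest of 8, with 69.6% on the next array, and the median processed intensity, 86.3, was also the highest, with 60.2 to 82.1 on the others. The 75th percentile of signal was 725, and the others ranged from 497 to 786. Among markers of cell types, those of microglia and macrophages moved with the members on this array, and most other lists did so little or not at all. Of 11 measurable microglia and macrophage markers, 9 were highest there, with a mean deviation of 0.77 from the other arrays. Adgre1, a macrophage surface receptor, was higher by 1.87 and Cd68, a lysosomal protein, by 1.60 on the log2 scale, while the homeostatic marker P2ry12 was at -0.26. The summed signal of the list was 24982 on this array, at least 16648 on the other arrays of its label and from 15505 to 19858 on WT arrays.

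Of 6 measurable lymphocyte and plasmacytoid markers 1, Siglech, was highest there, by 0.25 over the mean of the other arrays, and Cd8a, Ms4a1, Nkg7 and Ly6d were below the filter. The summed signal of this list was 75557 there, at least 61220 on the other arrays of its label and from 58931 to 65100 on WT arrays. Siglech made up most of that sum, at a log2 signal before normalization of 16.2 there, with 11.1 for the next marker, Klrb1c. The mean deviation of the list was 0.11 on this array and 0.26 on Mrp4-null replicate 2. Endothelial markers were highest there in 2 of 12 cases, against 12.8% of all genes, with a median difference of 0.09 and a range from -0.18 (Esam) to 1.07 (Vwf). Their summed signal was 17892 there, at least 15067 on the other arrays of its label and from 15898 to 17277 on WT arrays. Of the glial list 5 of 10 were highest there, led by Gfap, the intermediate filament of reactive glia, at 1.71, while the median of the list was 0.04 and S100b was lowest at -0.47. Hemoglobin and other blood genes deviated by 0.71 on this array, and also by 0.70 on WT replicate 1 and 0.53 on Mrp4-null replicate 2, where the members deviated by -0.03 and -0.09. Rod and cone genes were highest on Mrp4-null replicate 3 in 2 of 12 cases and inner retinal neuron genes in 3 of 15. Pigment epithelium genes were so in 0 of 7 cases and lens genes in 0 of 8. The mean deviations of these lists there were 0.01, 0.02, -0.22 and -0.40, respectively. The part that cell composition had in the excess of the members was not tested.

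**Figure D3:**
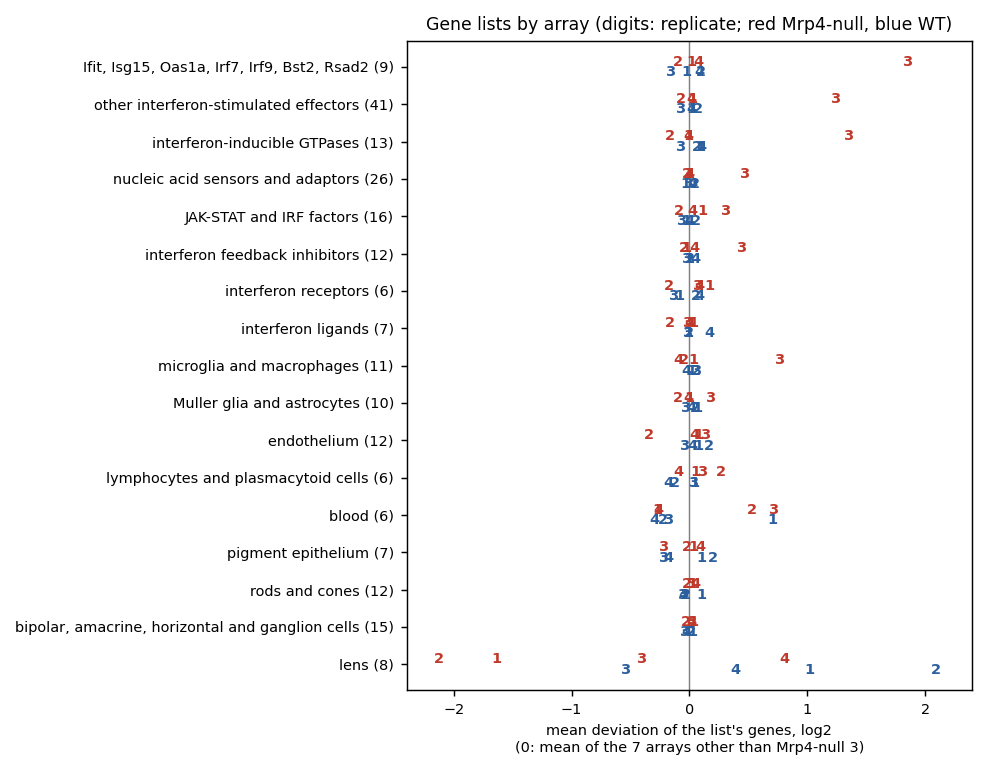
Mean deviation of each gene list on each array (log2, relative to the mean of the 7 arrays other than Mrp4-null replicate 3), with the number of measurable genes in parentheses. Digits mark the replicate, red for arrays labelled Mrp4-null and blue for WT. The members, other effectors and GTPases deviated by 1.86, 1.25 and 1.35 on Mrp4-null replicate 3, while interferon ligands and receptors were at -0.02 and 0.07.

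The genes whose pattern was most like the mean of the members were ranked by Pearson correlation over the 8 arrays. They were, in order, Rtp4, Tgfbi, Oas1f, Ifit3b, Oasl1, Nfkb2, Mt2, Gbp2, Lyn and Lcn2, with r from 0.997 to 0.987. Of these 10, 5 belong to the interferon lists described below, namely Rtp4, Oas1f, Ifit3b, Oasl1 and Gbp2. All 10 were highest on Mrp4-null replicate 3. Over the other 7 arrays their r with the members ran from -0.0027 (Lcn2) to 0.85 (Rtp4). Rtp4, a chaperone induced by interferon, had values from 8.24 to 8.55 on 7 arrays and 10.66 on Mrp4-null replicate 3 (log2 signal). Probes of Ifit3 and Ifit3b, and of Oas1a and its neighbouring paralogs, may detect near-identical transcripts, and how far they share signal was not tested.

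Beyond the members, 157 further genes of the pathway were listed, of which 121 were measurable. Limma called 1 of the 121 higher under the null label and 0 lower, where 0.311% of all genes were called higher. Their median log2 fold change was 0.11, and -0.04 without Mrp4-null replicate 3. That array held the highest value for 69 of the 121, and for 29 of them by at least 2-fold, where the shares over all genes were 12.8% and 0.826%.

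The gene called was Rnaseh2a, the catalytic subunit of the nuclease that clears RNA from RNA-DNA hybrids. Its log2 signal was 9.29 ± 0.07 (SD, n = 4) under the null label and 8.67 ± 0.12 (SD, n = 4) under the WT label (log2 fold change 0.63, SE 0.09, limma adjusted p = 0.0177), and its second probe gave 0.43 (adjusted p = 0.0483), under the fold threshold. Without Mrp4-null replicate 3 the adjusted p was 0.0532 at a log2 fold change of 0.64, and the LPE test gave an adjusted p of 0.368. Rnaseh2a lies on chromosome 8, where 3.34% of probes were called, against 0.545% of all probes. Its level was not highest on Mrp4-null replicate 3, and the subunits Rnaseh2b and Rnaseh2c were not called (log2 fold changes -6.3e-04 and -0.17).

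At the top of the pathway, none of the measurable ligands and receptors was highest on Mrp4-null replicate 3, but most ligands lay below the filter. Of 18 ligand genes on the array, 7 were measurable, 0 of them were highest there, and the list had a median log2 fold change of -0.11. The extremes were Ifnl3 at 0.16 and Ifna9 at -0.17. Ifng, the type II interferon, stayed below background everywhere, and Ifnb1 was above it on 1 array, Mrp4-null replicate 3, at a processed signal of 13.0 against at most 6.43 on the others. Ifna2 and Ifna15, also below the filter, were highest there too, at 22.3 against at most 18.2 and at 15.1 against at most 12.7. Of the 6 receptor genes 0 were highest there. Ifnlr1, the specific chain of the type III receptor, had the largest log2 fold change, 0.64 (limma adjusted p = 0.385), and Ifngr1 the lowest, -0.16, and without Mrp4-null replicate 3 these were 0.62 and -0.09.

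Among 16 kinases and transcription factors 7 were highest on Mrp4-null replicate 3 and 0 by 2-fold. Stat2, which partners with IRF9, was higher there than the mean of the other arrays by 0.52 (log2), and Irf1 was higher by 0.78. Irf8, a factor of the myeloid lineage, was higher by 1.14 and also had the largest log2 fold change of the list, 0.40, which was 0.13 without that array. Irf4 had the lowest, -0.28, and -0.34 without it. Jak1, Jak2 and Tyk2 were not highest there.

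Of 26 sensors and adaptors 11 were highest on that array and 2 by at least 2-fold. Ifi204, a cytosolic DNA sensor, was higher there by 3.76 and had the largest log2 fold change, 1.25 (limma adjusted p = 0.998), which was 0.37 without that array. It was well above background on 4 arrays labelled Mrp4-null and 3 of 4 WT arrays, so these differences include a WT array at background. Zbp1, a sensor of Z-form nucleic acid, was higher by 1.79. The RNA sensors Ddx58 (RIG-I), Ifih1 (MDA5) and Dhx58 (LGP2) were higher by 1.01, 0.99 and 1.03. Aim2 had the lowest log2 fold change of the list, -0.22 (-0.24 without that array), and Mavs, Cgas and Tlr9 were each within 0.05 of the other arrays.

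Of 41 other effectors, 35 were highest on Mrp4-null replicate 3 and 17 by at least 2-fold, and 0 were called between genotypes. The chemokine Cxcl10 was higher there by 3.87, Ifi27l2a by 2.72, Oasl1 by 2.67, Oas1f by 2.60, Ifitm1 by 2.52 and Ccl5 by 2.49. Ifitm1, Cxcl10 and Ccl5 had the largest log2 fold changes between genotypes, at 1.02, 0.96 and 0.77, and these became 0.46, -0.0098 and 0.17 without that array. Oas1e, Cmpk2 and Oas1d had the lowest, at -0.32, -0.14 and -0.14 (-0.24, -0.19 and -0.13 without that array), and they were not highest there, nor were Tdrd7 and Ifit1bl2, among others.

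The interferon-inducible GTPases, which act on membranes that enclose pathogens, were highest there in 12 of 13 cases and by at least 2-fold in 8. Iigp1 was higher by 2.16, Gbp2 by 1.82, Irgm1 by 1.64 and Gbp3 by 1.56 (log2), and Gbp9 was the exception at -0.15. Gbp3 and Gbp4 had the highest and lowest log2 fold changes between genotypes, 0.44 and 0.03, which were 0.05 and -0.36 without that array. Among 12 feedback inhibitors 4 were highest there. Socs3 and Usp18, which dampen cytokine and interferon receptor signalling, were higher by 2.39 and 2.03, Socs1 by 0.57, and Pias3, the lowest of the list between genotypes at -0.16 (-0.18 without that array), was not. The log2 fold change of Socs3, the highest of the list, was 0.77 with all arrays and 0.20 without that array.

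**Figure D4:**
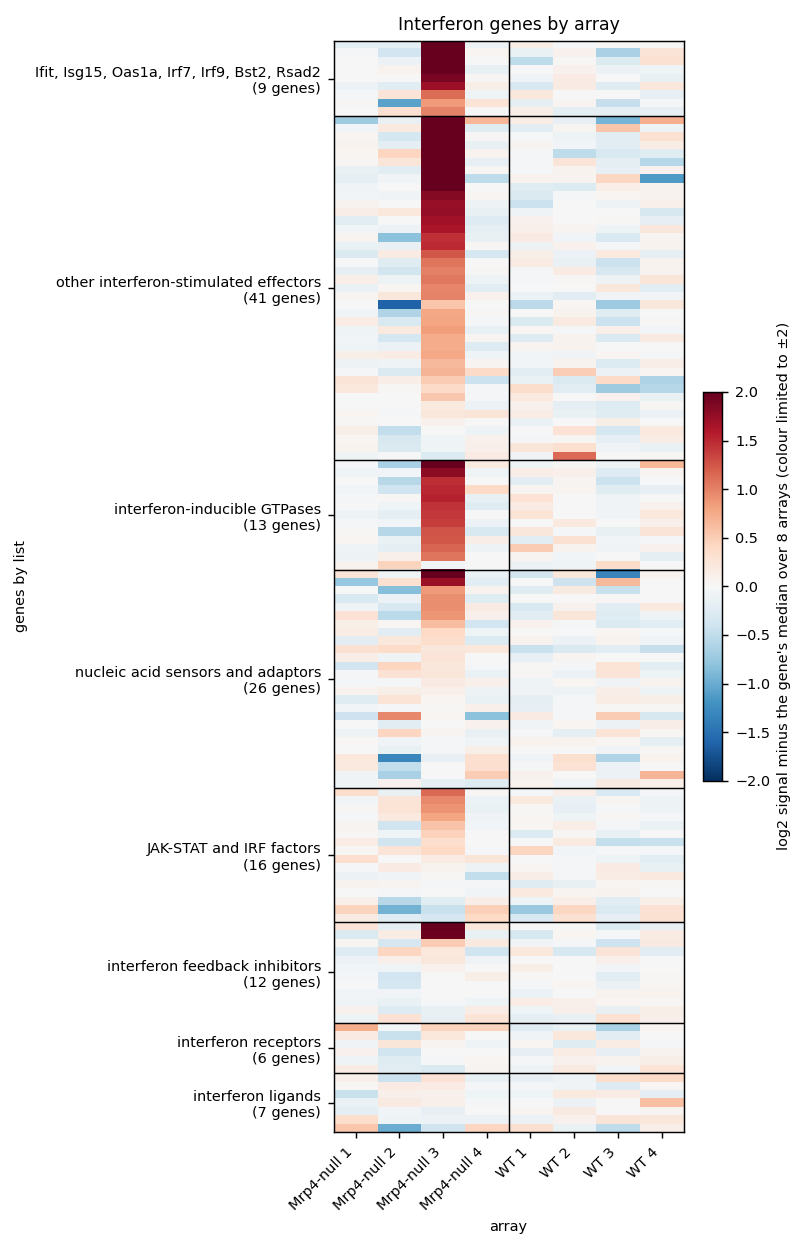
Log2 signal minus the median of each gene over the 8 arrays, for the 9 members and the 121 other measurable genes of the pathway, by list and within a list by the excess on Mrp4-null replicate 3 (colour limited to ±2). The column of that array is high in members, effectors and GTPases, and pale in most receptors and ligands, where 0 of 13 genes were highest.

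The promoter motif was also counted in the lists. It was present in 19 of 43 other effectors and 9 of 9 GTPases that had a promoter entry, in 2 of 14 kinases and factors, 3 of 20 sensors and adaptors and 1 of 9 feedback inhibitors, and in 0 of 5 receptors. Among the ligands 11 of 20 (55.0%) had it, a higher share than among the other effectors (44.2%), although 0 of the 7 measurable ligands were highest on Mrp4-null replicate 3. These counts by list include genes that were not measurable. Among the measurable listed genes with an entry, the motif was present in 24 of 49 (49.0%) that were highest on Mrp4-null replicate 3. It was present in 8 of 42 (19.0%) of the other measurable ones. Among the members themselves it was found in all 6 with an excess of at least 2-fold on that array, and in none of the 3 with less, Irf7, Ifit2 and Irf9, each by its probe of higher signal. By their second probes, at 2.00-fold and 1.95-fold, Irf7 and Irf9 lie at the border of that split. These counts describe the letters in 300 bases and were not tested.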

How the data were processed

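Retinal RNA was labelled with Cy3 and read on 8 one-color arrays. The authors deposited the scanner output of Agilent Feature Extraction 11.0.1.1 (version from the submitters' processing notes), whose processed signal is an intensity corrected for background and spatial trend within the array but not scaled between arrays. A table of mean processed intensities per probe was also deposited and served only as an alternative. Here, control spots and outlier spots were left out and spots of a probe were averaged as log2 of the deposited intensity. Probes were kept if all measured arrays of 1 genotype were well above background, with at least 3 measured there and 2 in the other, which left 37085 of 56605 probes and 11 of 12 member probes. Values were quantile-normalized and compared with limma 3.58.1 in R 4.3.3, with genotype as the only term. The LPE test was written for this work with bins of 0.01 and a spline of 10 degrees of freedom. Scripts were tested on simulated data.

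A gene was counted as called through any of its probes and otherwise represented by its probe of highest mean signal. Accessions were matched to RefSeq GRCm38.p6 for 32994 probes (58.3%). The array design carries an older build, so coordinates are given only for promoters from the RefSeq table. Precision is limited by how many arrays there are. The number of per-sample columns that matched no sample was 0. The members and gene lists were chosen with earlier results of these data known. Genes named were all members, Abcc4, listed interferon genes called changed, the 3 highest and 3 lowest log2 fold changes of the other effectors and the highest and lowest of each other interferon list, and the 10 genes most correlated with the members. Genes named for their value on Mrp4-null replicate 3, and the marker genes named singly, were chosen after their values were seen.

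As alternatives, arrays were scaled to their 75th percentile or by cyclic loess, and the others were normexp with an offset of 50 (on median intensities, since the files hold no mean), 2 other filters, outlier spots kept, the deposited table, robust variances with a trend in intensity, the LPE test, the adjusted p alone, the sample number as a block, and each array left out in turn.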

Additional observations from a re-analysis of the deposited data

Results flagged for a closer look

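A value was marked when the highest or lowest of 4 arrays of a genotype stood off from the others by a gap that, as a share of the group's whole range, exceeded the 95% critical value of Dixon's test. Of 98 groups screened 25 were marked. Chance marks about 1 in 20 groups that are picked without regard to their values, and that rate is no yardstick here, since the members were chosen with earlier results known, and the 10 genes most like them and the genes with extreme fold changes were picked by values that this array shapes. Of the marked groups, 22 were high on Mrp4-null replicate 3 and 3 were high on a WT array. Among the members the gap on Mrp4-null replicate 3 was 0.852 of the range for Ifit1, 0.903 for Isg15, 0.972 for Oas1a, 0.978 for Bst2 and 0.941 for Rsad2. It was 0.914 for the mean deviation of the 9 members. Ifit2, Ifit3, Irf7 and Irf9 were not marked in that group.

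On the same array the gap was 0.898 for Ifi204, 0.838 for Ifitm1, 0.839 for Ccl5, 0.892 for Rtp4, 0.909 for Oas1f, 0.896 for Ifit3b, 0.866 for Oasl1 and 0.981 for Gbp2. For genes outside the interferon lists it was 0.877 for Tgfbi, 0.933 for Nfkb2, 0.864 for Mt2, 0.953 for Lyn and 0.969 for Lcn2. For the mean deviation of a list it was 0.945 for sensors and adaptors, 0.924 for the other effectors and 0.896 for the GTPases. On the WT arrays the gap was 0.893 for Irf9 (replicate 1), 0.917 for Oas1e (replicate 2) and 0.961 for the mean of the ligands (replicate 4).

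Of 48 probes of members and listed genes below the filter, 11 were well above background on an array labelled Mrp4-null and on no WT array. Probes above background on WT arrays only were not counted, nor was the share over all probes below the filter. The 11 therefore give no comparison between the labels. On Mrp4-null replicate 3 the processed signal was 53.4 for the second Rsad2 probe, 13.0 for Ifnb1, 79.4 for Oasl1, 18.4 for Ifit1bl1, 25.6 for Herc6, 126 for Ifi205, 22.3 for Ifna2, 25.9 for Tlr7, 15.1 for Ifna15 and 64.4 for Zbp1. The probe of Trim14 had its highest signal, 17.7, on Mrp4-null replicate 4.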

How the results depend on the processing

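The call of 0 of 9 members was the same under every alternative run. The count of 9 of 9 highest on Mrp4-null replicate 3 was the same in each alternative that kept that array. The LPE test, the robust variances, the block and the adjusted p alone use the main normalized values, so this count could not differ there. Leaving out another array could alter it only through the normalization. Outside the fits that left out an array, no member changed sign. With the sample number as a replicate block 71 probes were called against 202, with 0 members and 0 listed genes. The numbers were not treated as pairs, since same-numbered arrays correlated at -0.29, -0.69, 0.03 and 0.41, and 0 of the 4 arrays labelled Mrp4-null correlated best with its own number. The count of listed genes called was 1, and it was 0 with normexp, the LPE test and the block. Leaving out each array in turn gave 117 to 183 probes called, 0 to 1 listed genes and 0 members. In those fits the log2 fold change ran from -0.021 to 0.93 for Ifit1, from -0.10 to 0.55 for Ifit2, from -0.037 to 0.61 for Ifit3, from -9.4e-04 to 0.73 for Isg15, from -0.19 to 0.90 for Oas1a, from -0.0098 to 1.49 for Cxcl10 and from -0.36 to 0.25 for Gbp4. The lowest value came without Mrp4-null replicate 3 in each of them, and Gbp4 was also below 0 without WT replicate 2 or 3. Among the fits without an array, Rnaseh2a was called only without Mrp4-null replicate 2 (log2 fold change 0.60) or WT replicate 3 (0.68). Over all of these fits its log2 fold change ran from 0.59 to 0.68. The median of the members ran from -9.4e-04 to 0.66, and was 0.42 with normexp. The second Rsad2 probe and the weak ligands lay close to background, where the signal limits any statement.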

Other observations

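Genes outside the interferon lists shared the excess on Mrp4-null replicate 3, and they were chosen here after their values were seen. Lcn2, an iron-siderophore binding protein of the acute phase, was 28.5-fold above the mean of the other arrays, Serpina3n, a protease inhibitor, 20.4-fold, the chemokine Ccl2 18.4-fold, complement factor B (Cfb) 13.6-fold, Timp1, an inhibitor of metalloproteinases, 12.2-fold and Edn2, an endothelin, 11.9-fold. Ccl2 and Cfb were well above background on 3 and 2 of the 4 WT arrays, so their folds include arrays at background. Nlrc5 and Tap1, which serve antigen presentation through class I molecules, were 7.14-fold and 4.00-fold above, and Ch25h, which makes an oxysterol and is itself inducible by interferon, 7.62-fold. Ranked by this excess over 16093 genes, the first 20 held 3 members or listed interferon genes, the first 50 held 16, the first 100 held 28 and the first 200 held 43. Limma called none of these 9 genes between the genotypes, and the LPE test called 1, Ch25h. Its log2 fold change was 1.68 (unadjusted p = 0.0118 and adjusted p = 0.450 in limma, adjusted p = 0.0122 in the LPE test), the ranges of the genotypes were apart, and without Mrp4-null replicate 3 it was 1.11 (limma adjusted p = 0.263). No cause of the excess was tested.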
